A study of Homo sapiens with 6 samples.

Results

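The genes described here act in cholesterol synthesis, uptake, transport and efflux, or control the SREBP transcription factors, which drive synthesis and uptake genes. They were chosen by name, with earlier results of these data known. Counts of them beside shares of all genes therefore describe the list and do not test it. The same holds for the other lists used below. Of 32 genes listed, 30 were measured among the 18417 genes tested on 6 microarrays. FDFT1 was not analysed here, and the probe set of HSD17B7 also carries the symbol of a pseudogene and was left out. All arrays came from Du145, a human prostate carcinoma line, grown in high-glucose medium with 10% serum under 5% CO2 at 37 °C and 1% oxygen, with RNA taken after 24 h of hypoxia. There were 3 groups of 2 arrays: control cells, cells infected with a lentivirus to knock down TSC2 (shTSC2), and cells given the same lentivirus whose titles call them adapted (shTSC2-adapted). The labels name no treatment that made the cells adapt, do not state whether the controls received a virus, and do not say that the arrays of a group came from separate cultures. P-values therefore set the group differences only against the spread between arrays within groups, pooled over the groups and drawn toward that of all genes. That spread may be technical. In such bulk RNA, fewer cells of a kind and less RNA per cell cannot be told apart. All groups are of 1 cell line, all were hypoxic, and effects of the virus and of lower TSC2 cannot be told apart.

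Cells build cholesterol from acetyl-CoA through mevalonate, isoprenoid units, squalene and lanosterol, or take it up in lipoproteins. SREBP-1 and SREBP-2, encoded by SREBF1 and SREBF2, are held in the endoplasmic reticulum by SCAP and INSIG proteins while sterols are plentiful, and are cut free to switch on the synthesis and uptake genes when sterols fall. The TSC2 protein restrains mTORC1, a growth kinase that promotes SREBP activity, in part by keeping lipin 1 out of the nucleus. Several late steps of the pathway consume molecular oxygen, and INSIG2 and VLDLR are known to respond to hypoxia.

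Of the 17 genes of the mevalonate, squalene and late sterol steps, 9 fell in shTSC2, and 15 were higher in shTSC2-adapted than in shTSC2, while none passed in shTSC2-adapted against control. In shTSC2 against control, 12 of 30 genes fell and 1 rose, with 17 not passing, whereas 13.9% of all genes tested fell and 6.87% rose. A gene was called where its adjusted p, from limma with Benjamini-Hochberg adjustment over all 18417 genes, was under 0.05. The members' median change, a difference of mean log2 intensities, was -0.39 against 0.03 over all genes. In shTSC2-adapted against shTSC2, 19 of 30 rose and 1 fell, beside 9.25% and 3.24% of all genes, with a median of 0.90 against -0.03. By member, 12 genes fell in shTSC2 and were higher in shTSC2-adapted than in shTSC2, 7 passed as higher in the second comparison alone, MYLIP rose and was then lower, and 10 passed in neither. These comparisons share the shTSC2 arrays, so the second is no independent evidence of the first.

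Against control, the shTSC2-adapted cells gave no call among the 30 genes, and 0.261% of all genes were called (0.206% lower and 0.0543% higher). At an unadjusted p under 0.05 by limma, 16 members were higher and 4 lower, beside 5.33% and 7.25% of all genes. The median difference was 0.40 against -0.01 over all genes, and it was 0.24 without shTSC2-adapted 1 and 0.55 without shTSC2-adapted 2. With array weights 4 members passed, namely LPIN1 (adjusted p = 0.0319), MVD (0.0342), ACAT2 (0.0402) and MSMO1 (0.0457), and none did in any other alternative. For 14 of 30 members both shTSC2 arrays lay below both control arrays and both shTSC2-adapted arrays lay above them, an order that 2.93% of all genes had. These were ACAT2, HMGCS1, MVK, MVD and IDI1 of the mevalonate steps, SQLE and LSS of the squalene steps, CYP51A1, MSMO1, NSDHL, EBP and DHCR7 of the late steps, and the regulators INSIG1 and LPIN1.

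**Figure D1:**
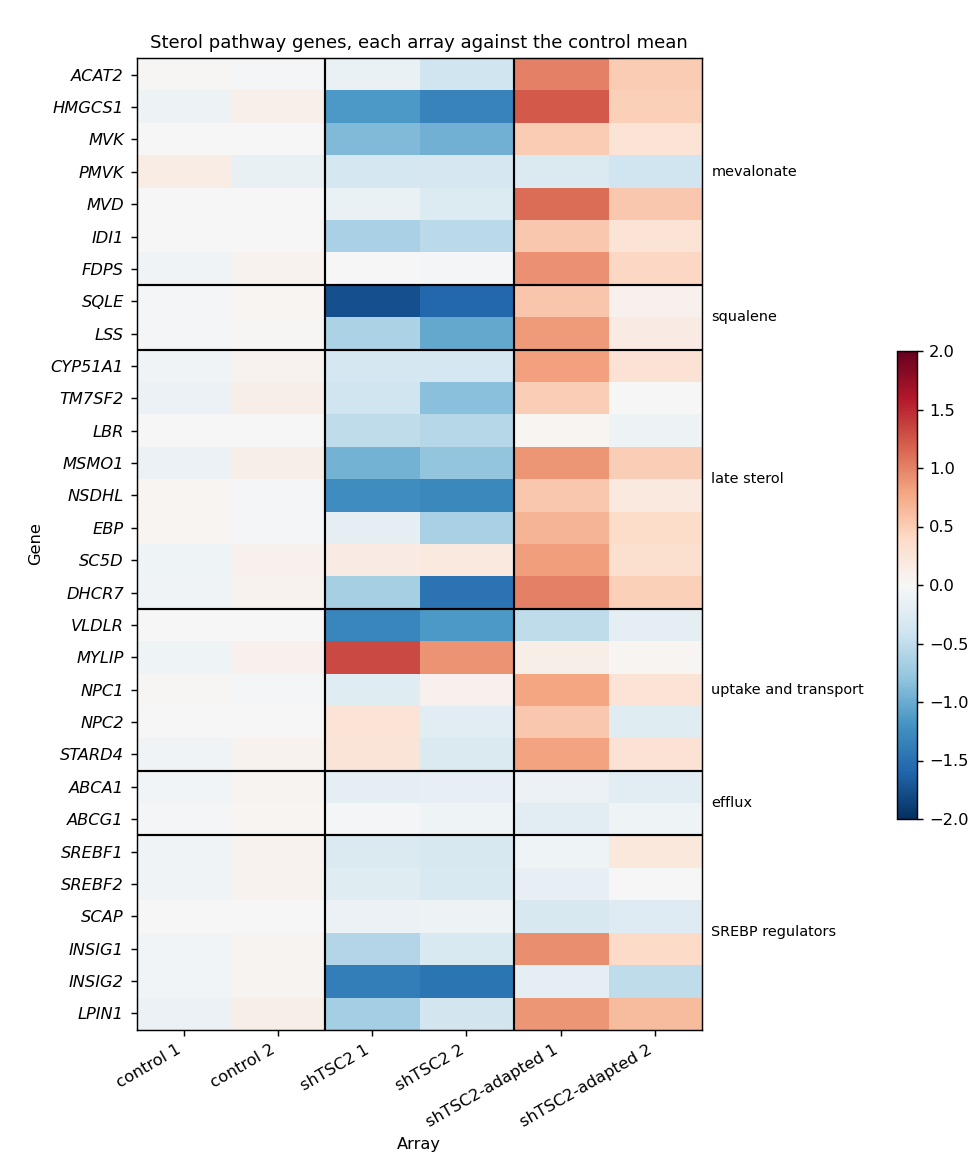
Log2 intensity of 30 genes (rows, grouped by step) on 6 arrays (columns), minus the mean of the control arrays. Red is higher and blue lower than control: most synthesis genes are blue on both shTSC2 arrays. Most are red on both shTSC2-adapted arrays, where the red is stronger on array 1, while MYLIP is red on the shTSC2 arrays.

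The arrays had median intensities of 58.1 to 63.1 over 33297 probe sets. TSC2 itself, the targeted gene, had log2 intensities of 7.52 and 7.59 in control, 6.67 and 6.55 in shTSC2, and 6.54 and 6.48 in shTSC2-adapted, so that all 4 knockdown arrays lay below both controls. The epithelial keratins KRT8 and KRT18 stood at 11.22 to 11.31 on the control arrays, and the luminal prostate genes KLK3 and KLK2, which Du145 is known to lack, at 5.01 to 5.29. Other epithelial markers were dimmer in control: KRT19 read 8.47 and 8.24, EPCAM 8.06 and 7.61, and CDH1 5.67 and 5.80. Of 5 epithelial markers, KRT19 (-1.38) and EPCAM (-1.28) fell in shTSC2 (adjusted p = 0.00664 and 0.0271), as did 13.9% of all genes tested. KRT19, EPCAM and CDH1 were higher in shTSC2-adapted than in shTSC2, as were 9.25% of all genes. None of the 5 passed in shTSC2-adapted against control, where CDH1 stood at 1.40 (adjusted p = 0.0680). The summed intensity of the epithelial list was 5341 to 5630 in control, 5841 to 6037 in shTSC2 and 6413 to 6420 in shTSC2-adapted. Of 4 measured markers of the embryonic kidney lines used to pack virus, PAX2 rose in shTSC2 (0.48), as did 6.87% of all genes. Their summed intensity in the 3 groups was 229 to 239, 282 to 320 and 255 to 361. These sums are of linear intensities, so the brightest genes weigh most. In the kidney list that was NEFL, at log2 7.15 to 8.03, which passed in no comparison, while PAX2, SALL1 and LIN28B read 3.31 to 5.73. In the epithelial list KRT8 and KRT18 weigh most. None of the 15 fibroblast, endothelial, leukocyte and hepatocyte markers measured passed in any comparison by limma (the fibroblast marker COL3A1 was higher at an unadjusted p under 0.05 in each comparison with control, at 0.37 and 0.42), and DCN, LUM, PTPRC and ALB lay below 4 on every array. The part of these marker changes in the results on sterol genes was not tested. Across all genes, the share of calls that were higher in shTSC2 was 33.0%, but 47.3% with quantile normalization and 44.4% with median centring. For shTSC2-adapted against shTSC2 it was 74.0%, 58.8% and 64.2%. The members' calls moved little with these settings: 10 and 11 fell in shTSC2 with quantile normalization and median centring, and 17 and 19 were higher in shTSC2-adapted than in shTSC2.

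As a description without a test, the members' promoters were searched for the sterol regulatory element and short motifs of other factors. Of the 30 genes, 27 had a promoter in the RefSeq table (GRCh38.p14), 250 bases before to 50 after a start site, 7 of them with more than 1 start. Both strands were read, and shares are over genes with the motif at any start, beside all 15842 protein-coding genes of the table. The core of the sterol regulatory element, TCACNCCA, occurred in 3 of 27 members (11.1%) and 4.92% of all genes. The CCAAT box, CCAAT, to which the SREBP partner NF-Y binds, occurred in 17 (63.0%) and 42.1%. The GC box, GGGCGG, bound by Sp1, occurred in 25 (92.6%) and 64.3%, and the E-box, CACGTG, in 5 (18.5%) and 10.9%. The shares were not matched for expression level, and of the members only ABCA1 and ABCG1 lay below the median level of all genes tested. Whether the shares differ from those of other bright genes was not tested. A match describes the letters and is not a measured site. Some motifs can overlap, as where CCAAT and its reverse complement ATTGG share letters. Printed first are the stretches around the sterol element core of the members that hold it, with the element core and any CCAAT box in capitals, 5′ to 3′ on the gene's strand and ending before the start site. For MVK only 30 bases are given because the gene's annotated span begins upstream of them.

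MVK, chr12:109573588-109573617, plus strand: gttcgcagttcTCACCCCAgggcgggacac

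MSMO1, chr4:165327464-165327659, plus strand: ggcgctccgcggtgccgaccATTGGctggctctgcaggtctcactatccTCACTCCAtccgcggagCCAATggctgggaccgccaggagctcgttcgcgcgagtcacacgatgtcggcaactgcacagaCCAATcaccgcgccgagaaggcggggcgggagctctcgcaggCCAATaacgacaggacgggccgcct

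SREBF2, chr22:41832952-41833023, plus strand: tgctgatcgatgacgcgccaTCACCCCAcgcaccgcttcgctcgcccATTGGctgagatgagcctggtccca

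MVK and MSMO1 were among the genes that fell in shTSC2 and were higher in shTSC2-adapted than in shTSC2, whereas SREBF2 passed in no comparison. Further stretches show the CCAAT box, in capitals, in HMGCS1, NSDHL and MYLIP, examples without that core that were picked with their values and their matches known. INSIG2, VLDLR, LBR and LPIN1, which also fell in shTSC2, had no CCAAT match in these windows, which says only that the letters are not there. Conversely, NPC2, STARD4, SC5D and SREBF2 held a CCAAT box and passed in no comparison.

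HMGCS1, chr5:43313488-43313587, minus strand: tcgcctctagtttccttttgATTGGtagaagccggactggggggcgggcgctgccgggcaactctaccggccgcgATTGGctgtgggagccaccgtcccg

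NSDHL, chrX:152830815-152831003, plus strand: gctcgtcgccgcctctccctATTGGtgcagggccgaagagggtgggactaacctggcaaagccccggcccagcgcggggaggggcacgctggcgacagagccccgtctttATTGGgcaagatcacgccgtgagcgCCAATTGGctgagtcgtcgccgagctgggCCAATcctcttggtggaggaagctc

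MYLIP, chr6:16128957-16129042, plus strand: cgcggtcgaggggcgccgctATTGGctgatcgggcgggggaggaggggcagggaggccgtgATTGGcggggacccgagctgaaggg

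Of the 7 measured mevalonate genes, HMGCS1, MVK and IDI1 fell in shTSC2, as did 13.9% of all genes tested. All except PMVK were higher in shTSC2-adapted than in shTSC2, as were 9.25% of all genes. HMGCS1, which makes HMG-CoA, had log2 intensities of 10.05 and 10.25 in control, 9.0 and 8.81 in shTSC2, and 11.37 and 10.62 in shTSC2-adapted. The 3 groups did not overlap, and the shTSC2-adapted arrays were the highest. The fall in shTSC2 was -1.25 (SE 0.23, n = 2 per group, adjusted p = 0.00827), which left 0.422 of the control level, a call that ended without control 2 (0.0836). The rise from shTSC2 to shTSC2-adapted was 2.09 (SE 0.23, adjusted p = 0.00288), the largest of the 30 members at 4.26-fold. MVK, which phosphorylates mevalonate, read 7.25 and 7.28 in control, 6.38 and 6.30 in shTSC2, and 7.77 and 7.54 in shTSC2-adapted. Its arrays lay close together within each group, and it fell in shTSC2 by 0.93 (SE 0.11, adjusted p = 0.00162) and was 2.49-fold higher in shTSC2-adapted than in shTSC2 (adjusted p = 0.00127). IDI1, which isomerises isopentenyl diphosphate, gave 10.33 and 10.36, then 9.69 and 9.81, then 10.89 and 10.62. That fall was -0.59 (SE 0.12, adjusted p = 0.0115), and it did not pass without either control array (0.0833 without control 1).

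ACAT2, MVD and FDPS passed in 1 comparison, that of shTSC2-adapted with shTSC2. ACAT2, the thiolase that opens the pathway, read 9.78 and 9.72 in control, 9.62 and 9.35 in shTSC2, and 10.76 and 10.25 in shTSC2-adapted. MVD, the mevalonate diphosphate decarboxylase, read 8.11 and 8.13, then 7.98 and 7.84, then 9.24 and 8.66. FDPS, which makes farnesyl diphosphate, read 9.69 and 9.83, then 9.76 and 9.73, then 10.67 and 10.17. In all 3 genes the shTSC2-adapted arrays were the highest, and the control and shTSC2 arrays of FDPS overlapped. Changes in shTSC2 were -0.27, -0.21 and -0.01 for ACAT2, MVD and FDPS (adjusted p = 0.339, 0.461 and 0.962). From shTSC2 to shTSC2-adapted they rose by 1.02, 1.04 and 0.68 (adjusted p = 0.0115, 0.0116 and 0.0353). The call of FDPS ended in 8 of 15 alternatives, which are not all distinct, among them quantile normalization (0.0622). Without shTSC2-adapted 1 its rise was 0.42. PMVK, the phosphomevalonate kinase, was the exception of this step: it read 7.80 and 7.49 in control and 7.24 to 7.35 on the other 4 arrays, with changes of -0.34 in shTSC2 and -0.35 in shTSC2-adapted against control that did not pass (adjusted p = 0.0922 and 0.297).

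The squalene steps held the largest fall in shTSC2. SQLE, the oxygen-dependent squalene epoxidase, had log2 intensities of 10.15 and 10.23 in control, 8.44 and 8.62 in shTSC2, and 10.75 and 10.28 in shTSC2-adapted. Both shTSC2 arrays lay far below the other 4, and shTSC2-adapted 2 was close to control. SQLE fell by 1.66 in shTSC2 (SE 0.16, adjusted p = 0.000819), which left 0.316 of the control level, and rose 3.96-fold from shTSC2 to shTSC2-adapted (SE 0.16 on the log2 scale, adjusted p = 0.00111). LSS, which closes the sterol rings to give lanosterol, read 8.32 and 8.36 in control, 7.71 and 7.31 in shTSC2, and 9.19 and 8.51 in shTSC2-adapted. Its arrays were farther apart within the knockdown groups than those of control. The fall of LSS was -0.83 (SE 0.22, adjusted p = 0.0374) and ended with quantile normalization (0.0659) and without control 1 (0.163), control 2 (0.190) or shTSC2 2 (0.134). Its rise from shTSC2 to shTSC2-adapted was 1.34 (SE 0.22, adjusted p = 0.0105). Against control the shTSC2-adapted cells stood at 0.33 for SQLE and 0.51 for LSS, and neither passed (adjusted p = 0.477 and 0.410).

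**Figure D2:**
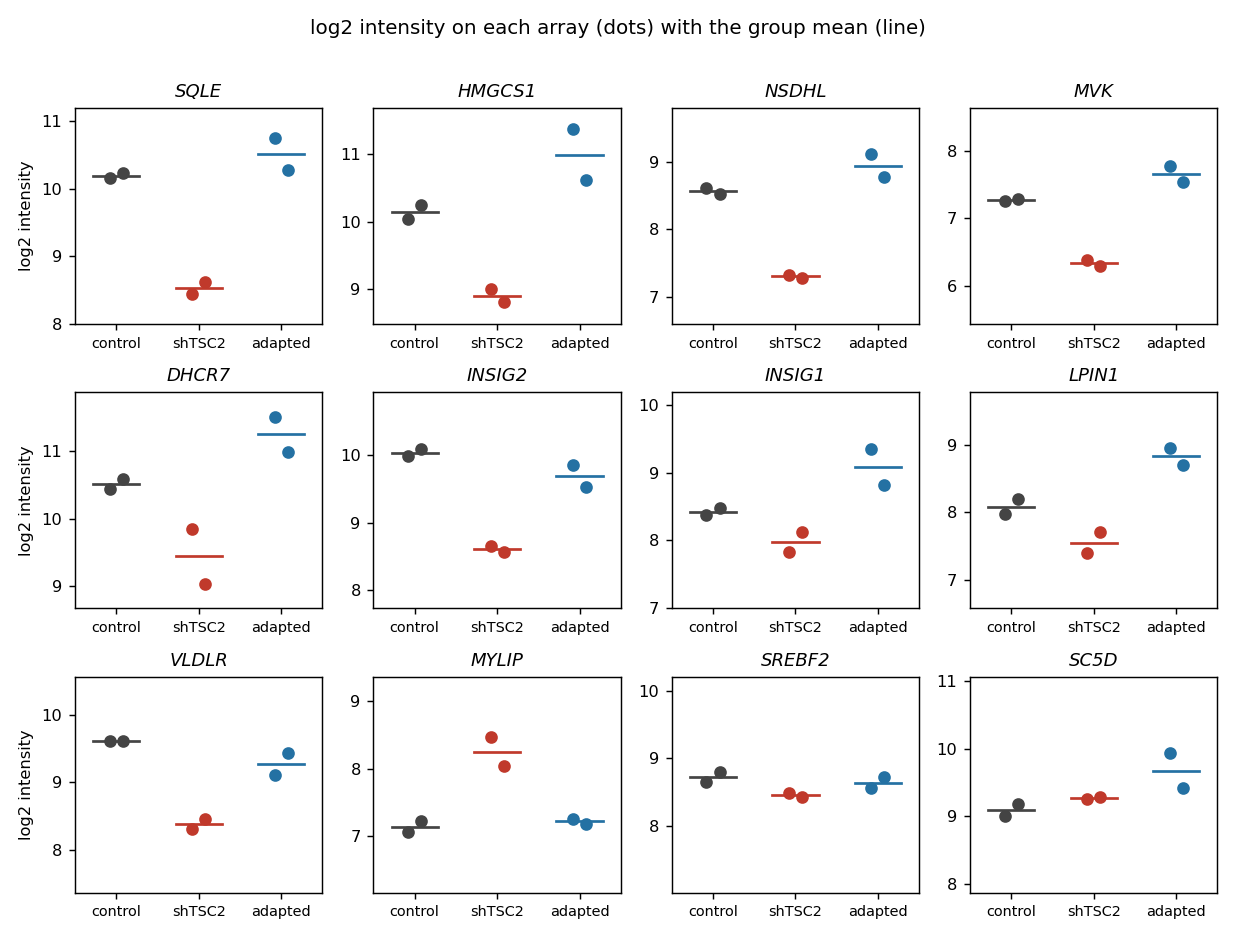
Log2 intensity of 12 genes on each array (dots) with the group mean (lines), in control, shTSC2 and shTSC2-adapted cells; each panel spans the same range of log2 units around its own values. SQLE, HMGCS1, NSDHL, MVK, DHCR7 and INSIG2 have both shTSC2 arrays below all others, MYLIP has both above, and the arrays of SREBF2 lie close together.

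Among the 8 late sterol genes, LBR, MSMO1, NSDHL and DHCR7 fell in shTSC2, as did 13.9% of all genes tested. All except SC5D were higher in shTSC2-adapted than in shTSC2, as were 9.25% of all genes. NSDHL, a dehydrogenase that helps remove the methyl groups at carbon 4, had log2 intensities of 8.62 and 8.53 in control, 7.33 and 7.28 in shTSC2, and 9.12 and 8.77 in shTSC2-adapted. The shTSC2 arrays agreed closely and lay apart from the rest. Its fall was -1.27 (SE 0.13, adjusted p = 0.00102), and it was 3.12-fold higher in shTSC2-adapted than in shTSC2 (adjusted p = 0.00111). MSMO1, the methylsterol monooxygenase that acts before it, read 9.05 and 9.28, then 8.22 and 8.38, then 10.04 and 9.66. MSMO1 fell by 0.86 (SE 0.15, adjusted p = 0.00717; 0.0800 without control 2) and rose by 1.55 from shTSC2 to shTSC2-adapted (SE 0.15, adjusted p = 0.00236). DHCR7, which makes cholesterol from 7-dehydrocholesterol, read 10.44 and 10.58, then 9.85 and 9.03, then 11.51 and 10.98. The shTSC2 arrays of DHCR7 differed by 0.82, the widest gap between arrays of a group among all members. Its fall of -1.07 (SE 0.27, adjusted p = 0.0301) ended without shTSC2 2 (0.0732), control 1 (0.127) or control 2 (0.178). The rise from shTSC2 to shTSC2-adapted was 1.80 (SE 0.27, adjusted p = 0.00744; 0.0543 without shTSC2-adapted 1). LBR, a nuclear envelope protein that is also a sterol reductase, read 10.40 and 10.39 in control, 9.89 and 9.82 in shTSC2, and 10.43 and 10.30 in shTSC2-adapted. LBR fell by 0.54 in shTSC2 (SE 0.10, adjusted p = 0.00780), and not without control 1 (0.0749) or control 2 (0.0770). Unlike most synthesis genes LBR stood at -0.03 against control in shTSC2-adapted (95% interval -0.26 to 0.20).

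TM7SF2, which encodes another sterol reductase of the same step, read 7.95 and 8.18 in control, 7.66 and 7.23 in shTSC2, and 8.55 and 8.05 in shTSC2-adapted. CYP51A1, the lanosterol demethylase, gave 10.41 and 10.56, then 10.14 and 10.13, then 11.31 and 10.78, and EBP, a sterol isomerase, 9.64 and 9.55, then 9.40 and 8.94, then 10.28 and 9.96. In each of the 3 genes the shTSC2 arrays lay below the controls, but no fall passed: TM7SF2 stood at -0.62, EBP at -0.42 and CYP51A1 at -0.35 (adjusted p = 0.0704, 0.131 and 0.195). They rose from shTSC2 to shTSC2-adapted by 0.85, 0.95 and 0.91 (adjusted p = 0.0340, 0.0139 and 0.0150). Without shTSC2-adapted 1 the calls of TM7SF2 (0.168), EBP (0.0881) and LBR (0.0894) ended. A second probe set of CYP51A1, the only member with more than 1, gave -0.36 in shTSC2 (adjusted p = 0.262) and 0.82 from shTSC2 to shTSC2-adapted (adjusted p = 0.0422). SC5D, the desaturase that forms 7-dehydrocholesterol, departed from this pattern, with 9.0 and 9.18 in control, 9.25 and 9.28 in shTSC2, and 9.93 and 9.41 in shTSC2-adapted. Both shTSC2 arrays of SC5D lay above the controls, and its changes of 0.17 in shTSC2 and 0.41 from shTSC2 to shTSC2-adapted did not pass (adjusted p = 0.519 and 0.174).

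In uptake and transport, the receptor VLDLR fell in shTSC2 while MYLIP, the ubiquitin ligase that marks lipoprotein receptors for breakdown, rose. VLDLR had log2 intensities of 9.61 and 9.62 in control, 8.31 and 8.46 in shTSC2, and 9.11 and 9.44 in shTSC2-adapted. It was lowest on the shTSC2 arrays and remained below both controls in shTSC2-adapted. Its fall was -1.23 (SE 0.13, adjusted p = 0.00111), and it rose by 0.89 from shTSC2 to shTSC2-adapted (SE 0.13, adjusted p = 0.00657), leaving a difference of -0.34 from control that did not pass (adjusted p = 0.334). MYLIP read 7.06 and 7.22 in control, 8.46 and 8.04 in shTSC2, and 7.26 and 7.18 in shTSC2-adapted. Both shTSC2 arrays lay above all others, and control and shTSC2-adapted overlapped. MYLIP rose by 1.11 in shTSC2 (SE 0.15, adjusted p = 0.00251), or 2.16-fold, and fell by 1.03 from shTSC2 to shTSC2-adapted (SE 0.15, adjusted p = 0.00631). The genes of sterol movement inside the cell did not pass in any comparison. NPC1 and NPC2, which pass cholesterol out of the lysosome, read 9.07 to 10.11 and 8.91 to 9.68 over the 6 arrays, and STARD4, a sterol carrier of the cytosol, 9.04 to 10.14. Their changes in shTSC2 were -0.08, 0.03 and -0.01 (adjusted p = 0.804, 0.961 and 0.974), and from shTSC2 to shTSC2-adapted NPC1 stood at 0.61 (adjusted p = 0.0762) and STARD4 at 0.56 (0.148).

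The efflux transporters ABCA1 and ABCG1, which export cholesterol to apolipoproteins and HDL, were dim. Log2 intensities of ABCA1 were 4.58 to 4.86 and those of ABCG1 4.71 to 4.97 over all 6 arrays, near the lower quartile of all probe sets (4.33). ABCA1 stood at -0.17 in shTSC2 and in shTSC2-adapted against control (adjusted p = 0.254 and 0.536). ABCG1 stood at -0.06 and -0.15 (adjusted p = 0.717 and 0.603).

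Of the 6 SREBP regulators, INSIG2 and LPIN1 fell in shTSC2, as did 13.9% of all genes tested. INSIG1, INSIG2 and LPIN1 were higher in shTSC2-adapted than in shTSC2, as were 9.25% of all genes. The INSIG paralogues, which both hold SCAP in the endoplasmic reticulum, differed in where they ended. INSIG2 had log2 intensities of 9.98 and 10.09 in control, 8.65 and 8.57 in shTSC2, and 9.85 and 9.52 in shTSC2-adapted. The shTSC2 arrays lay far below the rest, and the shTSC2-adapted arrays stayed below both controls. INSIG2 fell by 1.43 (SE 0.13, adjusted p = 0.000726), to 0.372 of control, and rose by 1.07 from shTSC2 to shTSC2-adapted (adjusted p = 0.00371). INSIG1, itself a known SREBP target, read 8.37 and 8.47 in control, 7.83 and 8.12 in shTSC2, and 9.35 and 8.81 in shTSC2-adapted. Its shTSC2-adapted arrays lay above both controls. The change of INSIG1 in shTSC2 was -0.45 and did not pass (SE 0.18, adjusted p = 0.138), while its rise from shTSC2 to shTSC2-adapted was 1.10 (SE 0.18, adjusted p = 0.0105). Against control, shTSC2-adapted cells stood at -0.35 for INSIG2 (95% interval -0.65 to -0.05) and 0.66 for INSIG1 (0.23 to 1.09), neither of which passed (adjusted p = 0.316 and 0.188), and the difference between the paralogues was not tested.

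LPIN1 encodes lipin 1, a phosphatidate phosphatase that in the nucleus lowers SREBP activity. Its log2 intensities were 7.97 and 8.20 in control, 7.40 and 7.71 in shTSC2, and 8.96 and 8.71 in shTSC2-adapted, with no overlap between groups. The rise from shTSC2 to shTSC2-adapted was 1.28 (SE 0.15, adjusted p = 0.00358), and against control it stood 1.68-fold higher without passing (adjusted p = 0.0943), the lowest adjusted p of the 30 genes in that comparison. The fall in shTSC2 was -0.53 (SE 0.15, adjusted p = 0.0431). That call ended in 10 of 15 alternatives, which are not all distinct, among them median centring (0.0672) and removal of the length trend (0.206). The change was -0.65 without control 1, -0.41 without control 2 and -0.38 without shTSC2 1. The transcripts of the SREBPs and of SCAP did not pass in any comparison. SREBF1 read 6.83 and 6.96 in control, 6.61 and 6.58 in shTSC2, and 6.81 and 7.11 in shTSC2-adapted. SREBF2 read 8.65 and 8.79, then 8.48 and 8.42, then 8.55 and 8.72, and SCAP 7.96 and 7.93, then 7.82 and 7.85, then 7.62 and 7.69. For all 3 genes both shTSC2 arrays lay below both controls, but differences of -0.30, -0.27 and -0.11 did not pass (adjusted p = 0.135, 0.122 and 0.447). SCAP was lowest in shTSC2-adapted, at -0.29 against control (adjusted p = 0.241).

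**Figure D3:**
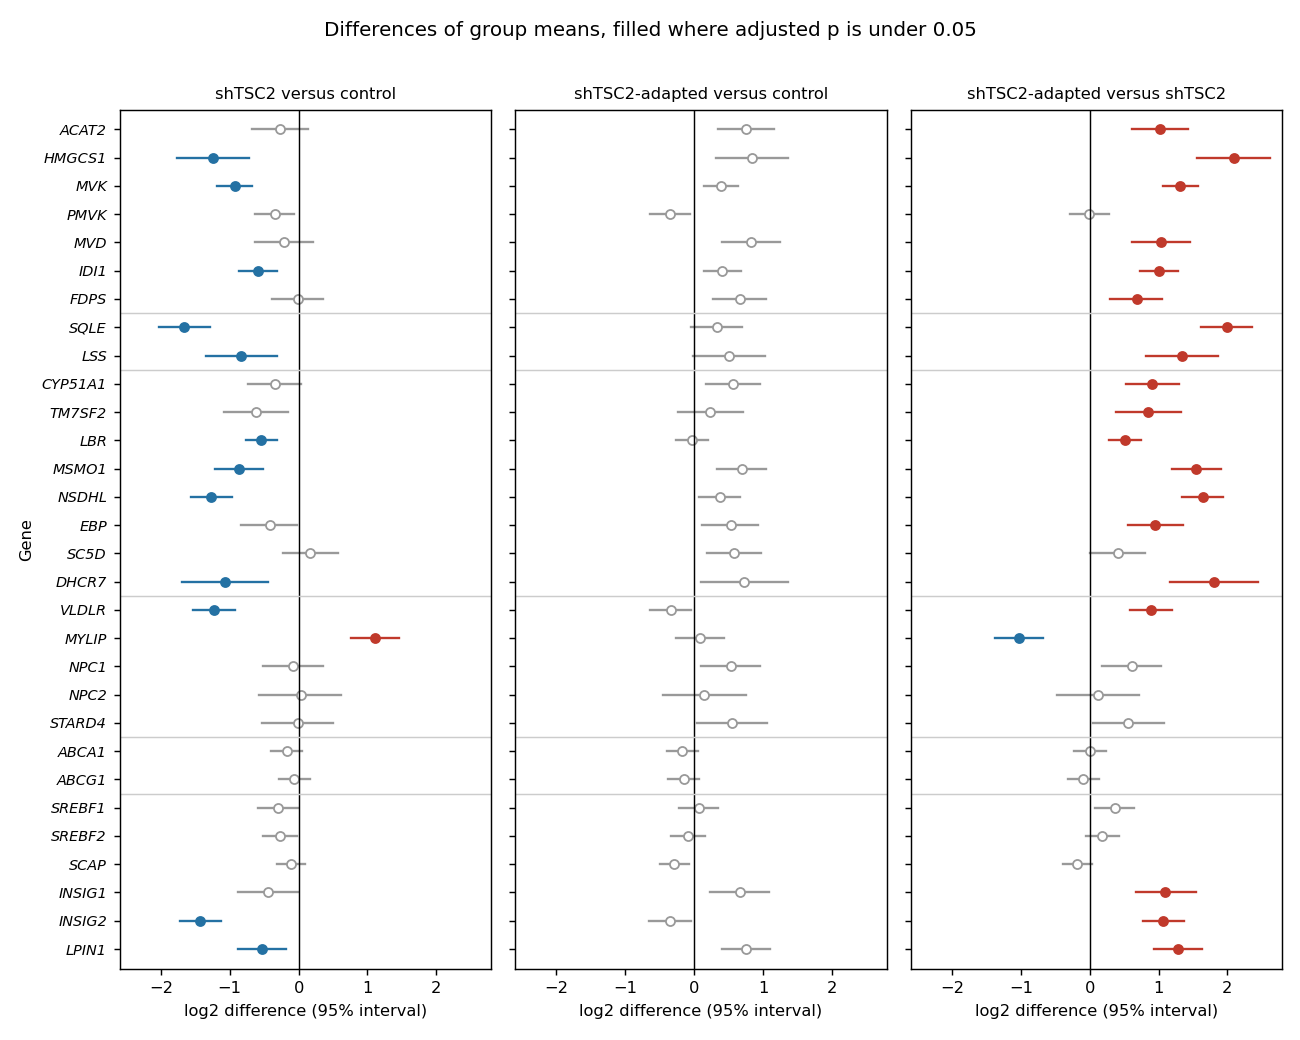
Difference of group means on the log2 scale with its 95% interval from limma for 30 genes in 3 comparisons; filled points passed an adjusted p of 0.05 (blue lower, red higher in the group named first) and open grey points did not. In the left panel 12 genes are lower and MYLIP is higher, in the middle none passes although most synthesis genes lie to the right of 0, and in the right panel 19 are higher and MYLIP is lower.

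By array, 23 of 30 members had both shTSC2 arrays below both controls and 2 above, where 29.6% and 32.4% of all genes did. In shTSC2-adapted 18 lay above both controls and 6 below, beside 21.8% and 24.1%. Against shTSC2, 24 lay above and 2 below, beside 25.0% and 27.1%. Median changes in shTSC2 were -0.34 for the mevalonate steps, -1.25 for the squalene steps, -0.58 for the late steps, -0.01 for uptake and transport, -0.12 for efflux and -0.37 for the regulators. From shTSC2 to shTSC2-adapted they were 1.02, 1.66, 0.93, 0.56, -0.05 and 0.72.

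The arrays of the shTSC2-adapted group differed from each other over the same genes. In 25 of 30 members shTSC2-adapted 1 was higher than shTSC2-adapted 2, by a median of 0.36, whereas over all genes array 1 was the higher in 44.7% and the median difference was -0.02. The same difference had a median of -0.09 in control, where array 1 was higher in 7 members, and 0.06 in shTSC2, where it was higher in 19. Against the control mean, the mevalonate genes had a median of 0.91 on shTSC2-adapted 1 and 0.41 on shTSC2-adapted 2, and the squalene genes 0.70 and 0.13. The late sterol genes stood at 0.76 and 0.31. Both arrays thus lay above control for these steps, array 2 by less. Without shTSC2-adapted 1, 14 members were higher than in shTSC2 by the test, and without shTSC2-adapted 2, 21 were.

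**Figure D4:**
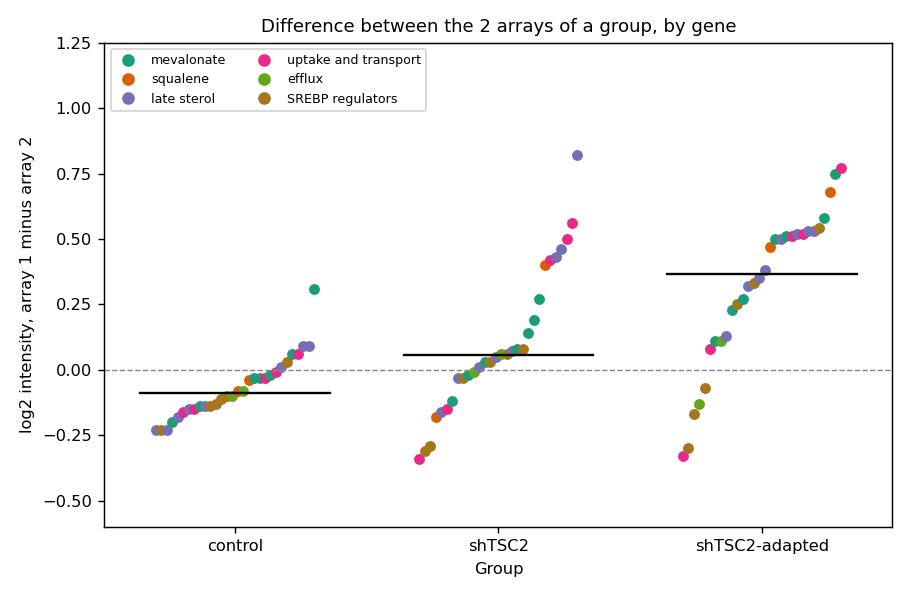
Log2 intensity on array 1 minus array 2 of each group for 30 genes (dots, sorted within a group and coloured by step), with the median as a line and 0 dashed. In shTSC2-adapted 25 of 30 dots lie above 0 with a median of 0.36, against medians of -0.09 in control and 0.06 in shTSC2.

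The members were also read with any trend on gene length removed from each array. Their median span in the reference was 23.2 kb, against 27.3 kb for all protein-coding genes tested. With the trend removed, 12 members fell and 1 rose in shTSC2, and 19 were higher and 1 lower in shTSC2-adapted than in shTSC2, the numbers found without it. The calls of LPIN1 and TM7SF2 in shTSC2 changed places: LPIN1 no longer passed, and TM7SF2 did (adjusted p = 0.0363).

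A further list held other genes of sterol handling and of the mevalonate branches. Of 23 listed, 19 were measured, and in shTSC2 4 fell and 1 rose (median -0.07), beside 13.9% and 6.87% of all genes tested. These are 5 calls in 19 genes, where 20.8% of all genes were called. MBTPS1, the protease that makes the first cut in SREBP, fell by 1.08 (SE 0.14, adjusted p = 0.00221), with log2 intensities of 9.79 and 9.75 in control against 8.84 and 8.54. PDSS1, which builds the side chain of coenzyme Q, rose by 0.75 (SE 0.10, adjusted p = 0.00234). The other falls were in OSBP, an oxysterol-binding transfer protein, GGPS1, which makes geranylgeranyl diphosphate, and TMEM97, a sterol-regulated membrane protein, all named after their values were seen. From shTSC2 to shTSC2-adapted 3 rose and 1 fell, beside 9.25% and 3.24% of all genes, led by TMEM97 (1.09, SE 0.13, adjusted p = 0.00365) and SCARB1, the HDL receptor (0.89, SE 0.19, adjusted p = 0.0242). MBTPS1 stood at -0.61 in shTSC2-adapted against control and SCARB1 at 0.77, and neither passed (adjusted p = 0.132 and 0.146).

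SREBP also drives fatty acid synthesis. Of 11 genes measured, 5 fell in shTSC2 and 0 rose, with a median of -0.41, beside 13.9% and 6.87% of all genes tested. The 2 genes with changes above 0 were FASN at 0.14 and SCD at 0.30, and neither passed (adjusted p = 0.431 and 0.200). In shTSC2-adapted against shTSC2, 9 were higher, with a median of 0.67, beside 9.25% of all genes. ACLY, which supplies cytosolic acetyl-CoA to both fatty acids and sterols, fell by 1.51 (SE 0.16, adjusted p = 0.00126), and ACACA, the first committed enzyme of fatty acid synthesis, by 0.76 (SE 0.10, adjusted p = 0.00223). They rose by 1.62 and 1.13 from shTSC2 to shTSC2-adapted (adjusted p = 0.00252 and 0.00155). Against control no gene of this arm passed in shTSC2-adapted by limma, and 6 were higher at an unadjusted p under 0.05, beside 5.33% of all genes. FASN, the fatty acid synthase, was nearest at 0.77 (SE 0.11, adjusted p = 0.0508), followed by ME1, a malic enzyme that supplies NADPH, at 0.50 (SE 0.10, adjusted p = 0.0985).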

How the data were processed

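The authors deposited linear intensity values, 1 for each probe set on each array. The submitters' processing notes name RMA, with no version; the genome build is not given in the sources used here. The quantile step of RMA brings the distributions of arrays closer, which can hide part of a shift common to most genes. It did not leave the deposited arrays alike, as their median intensities ran from 58.1 to 63.1. Every log2 value of the deposited intensities lay within 6.99e-10 of a 2-decimal number and was used so rounded. Probe sets were named from the platform annotation: of 33297, 19460 had 1 symbol, 1754 had several and 12083 are unnamed here, and 19429 gene IDs matched the RefSeq table of GRCh38.p14. The probe set with the highest mean was kept for each gene. A linear model over all 6 arrays was fitted to every gene with limma 3.58.1 in R 4.3.3, leaving 3 residual degrees of freedom. Its empirical Bayes step drew each gene's variance toward that of all genes, with 4.39 prior degrees of freedom. SEs, intervals and p-values use this moderated variance, pooled over the 3 groups. Two-sided p-values were adjusted over all 18417 genes (Benjamini-Hochberg) and called under 0.05. The model was tested on simulated data. Arrays have no read depth, and their number limits precision. Named genes are the 32 members, TSC2 and, of the lists of other pathway genes and of fatty acid synthesis, the 2 with the lowest unadjusted p per comparison. OSBP and GGPS1, TMEM97, FASN and SCD in shTSC2, and the marker genes were named after their values were seen. Members and lists were chosen with earlier results of these data known. Alternatives were quantile normalization, median centring, dim genes left out, every probe set tested, the gene length trend removed, only the 4 arrays compared, array weights, a variance prior with an intensity trend, a replicate block and leaving out each array. Leaving out an array of the group not compared repeats the fit of the 4 arrays compared, so these alternatives are not all distinct.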

Additional observations from a re-analysis of the deposited data

How the results depend on the processing

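Of 13 member calls in shTSC2 against control, 6 passed in all 15 alternatives (MVK, SQLE, NSDHL, VLDLR, INSIG2 and MYLIP), as did 15 of 20 in shTSC2-adapted against shTSC2, and no called member changed sign. Leaving out 1 array at a time gave 5 to 13 members lower in shTSC2 (5 without control 2, 7 without control 1), and 14 to 21 higher in shTSC2-adapted than in shTSC2. Over all genes it gave 1175 to 3895 calls against 3833 in shTSC2 against control, 0 to 248 against 48 in shTSC2-adapted against control, and 837 to 2600 against 2300 in shTSC2-adapted against shTSC2. A lone array was assumed to vary like the other groups. Leaving out an array of the group not compared repeats the fit of only the 4 arrays compared, so the 15 alternatives are not all distinct. Fitting only the 4 arrays compared gave 1113 calls in shTSC2-adapted against shTSC2 and 248 in shTSC2-adapted against control, where fewer arrays enter the fit. In shTSC2-adapted against control, median centring gave 90 calls, dim genes left out 121 and array weights 437, with 4 members higher; the cause was not tested.

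The labels do not state whether the array numbers pair the samples. Deviations of same-numbered arrays correlated at -0.10 (control and shTSC2), -0.19 (control and shTSC2-adapted) and 0.21 (shTSC2 and shTSC2-adapted). With 1 difference per group, these values cannot settle it. With the replicate block, 3536 genes, 11 members lower and 1 higher were called in shTSC2 against control, where LPIN1 no longer passed (adjusted p = 0.0569). The replicate block gave 1 gene in shTSC2-adapted against control, and 2064 genes with 19 members higher and 1 lower in shTSC2-adapted against shTSC2. Dim genes left out removed ABCA1 and ABCG1, so that 28 members were tested; TM7SF2 then passed in shTSC2 (0.0390) and NPC1 in shTSC2-adapted against shTSC2 (0.0433). Without shTSC2 1, TM7SF2 (0.0357) and EBP (0.0266) passed in shTSC2 and STARD4 (0.0447) in shTSC2-adapted against shTSC2, as did SC5D (0.0412) and NPC1 (0.0399) without shTSC2-adapted 2.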
